A study of Homo sapiens with 6 samples.

Results

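The genes described here carry peptides from the cytosol to the cell surface on MHC class I molecules. They are HLA-B, HLA-C, HLA-E, B2M, TAP1, TAP2, TAPBP, PSMB8 and PSMB9. All probe sets annotated to any of these 9 genes were taken, which gave 23 of the 54613 probe sets tested and 9 of 19775 named genes. RNA came from K562, a long-established human chronic myeloid leukemia line, and was read on 6 arrays of the Affymetrix type Human Genome U133 Plus 2.0. The 2 control arrays came from cells named KpCDNA, stably transfected with the empty pCDNA vector. The 4 others came from cells named KCTCF-D11, stably transfected with pCDNA-CTCF, which expresses the insulator-binding zinc finger protein CTCF. Neither line received any further treatment, and the study set KCTCF-D11 against KpCDNA as the baseline. Only 1 transfectant of each kind is named, and what CTCF does cannot be told apart from what is peculiar to either transfectant. Whether replicates were separate cultures is not labelled, so the p-values rest on a spread among arrays that may be technical.

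An MHC class I molecule is a heavy chain, encoded by genes such as HLA-B, HLA-C and HLA-E, bound to the invariant light chain beta-2 microglobulin (B2M) and a peptide. Peptides are cut by the proteasome, whose inducible subunits PSMB8 and PSMB9 replace constitutive ones after interferon. They enter the endoplasmic reticulum through the transporter formed by TAP1 and TAP2 and are loaded with the help of tapasin (TAPBP). NLRC5, IRF1 and the RFX complex are known activators of these genes, and NK cells recognise cells that lose class I from their surface. K562 cells are known for little class I at the surface and are a classic NK cell target.

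CTCF itself (202521_at) read 457 and 634 with empty vector and 1311, 1614, 1332 and 1332 with CTCF. The groups did not overlap, and the change was 2.44-fold (log2 1.29 ± 0.16 SE, adjusted p = 0.0288). The 6 arrays fell into 2 sets by their 45 bacterial and phage spike-in probe sets, a split read from the arrays and not from a label, whose cause was not tested. Empty vector 1 and CTCF 4 formed the smaller set, and empty vector 2 with CTCF 1, 2 and 3 the larger. The 3′ minus 5′ log2 difference of ACTB, a sign of RNA quality or labelling, reached 0.81 and 0.91 in the smaller set, against 0.22 to 0.28 in the larger. The same difference for GAPDH did not separate the sets, at -0.118 and -0.124 in the smaller and -0.146 to -0.113 in the larger. Both sets held both groups, so changes were fitted on log2(value + 16) with the set as a block, and values within each set are given beside them. Without the block the adjusted p of CTCF was 0.199. With the block, leaving out empty vector 1 or CTCF 4 is a single test, that of the larger set alone, and its control arm is 1 array. Leaving out empty vector 2 takes the change from the smaller set alone and the spread from the 3 CTCF arrays of the larger set. Those lone arrays are assumed to vary like the CTCF arrays. The CTCF call was lost in both, and also without CTCF 2 or CTCF 3, at adjusted p from 0.106 to 0.398. Each value is the authors' linear intensity for a probe set, and values of different probe sets are not on a common scale. Array medians were 28.8 to 34.2. Of the 5 measured K562 markers (GATA1, KLF1, TAL1, HBE1 and TFRC), all lay between 804 and 11367 and none passed the threshold.

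None of the 23 probe sets passed the adjusted threshold of 0.05, where 1.86% of all probe sets did, 0.538% higher and 1.32% lower with CTCF. The most extreme members were the 3 probe sets of HLA-E and 1 of TAPBP, all with lower means in the CTCF arrays. At an unadjusted p under 0.05 there were 6 of 23, of which 5 were lower and 1 higher, against 17.6% of all probe sets, 10.2% lower and 7.43% higher. In limma without the block, 0 members had an adjusted p under 0.05, against 0.011% of all probe sets, and 2 an unadjusted one, against 6.83%. Of the members, 17 of 23 had a log2 change below 0, where 53.2% of all probe sets did. The median log2 change was -0.19 over the members and -0.02 over all probe sets. In the larger set alone these medians were -0.16 and -0.02, and in the smaller set -0.14 and -0.00. Within both sets 14 members were lower with CTCF, against 32.4% of all probe sets, and 3 were higher, against 28.3%. Probe sets of a gene share its transcripts and are not independent. In such bulk samples fewer expressing cells and less RNA per cell cannot be told apart.

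**Figure D1:**
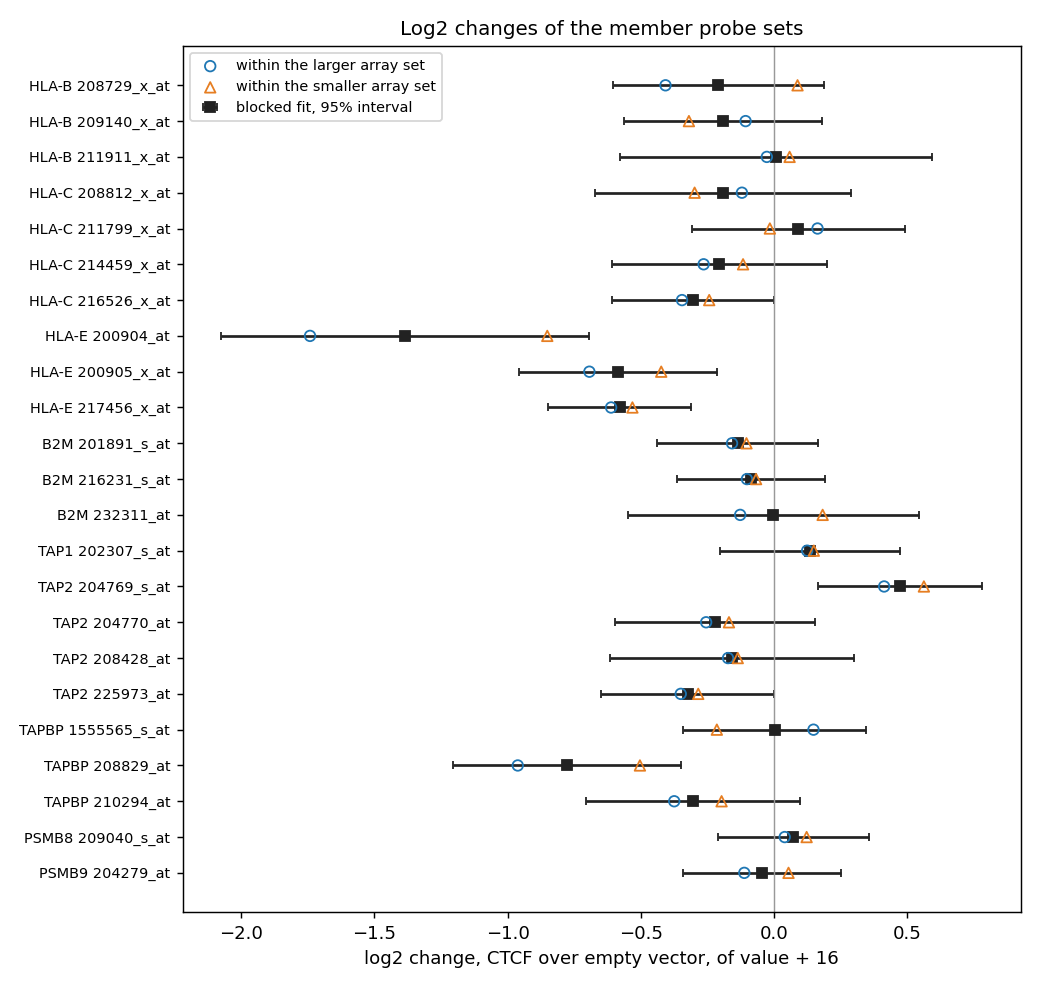
Log2 change of each of the 23 member probe sets, CTCF over empty vector, with its 95% interval from the blocked fit and, as separate symbols, the differences within the larger and the smaller array set. The 3 HLA-E probe sets and TAPBP 208829_at lie farthest to the lower side, and TAP2 204769_s_at farthest to the higher side.

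HLA-E encodes a non-classical heavy chain that presents leader peptides of other class I chains to NK cell receptors of the CD94/NKG2 family. Of its 3 probe sets 2 have the suffix _x_at, which marks probes that can hybridise to related transcripts, so a value of 1 gene may hold signal of another. Its probe set 217456_x_at read 626 and 462 with empty vector and 296, 298, 297 and 428 with CTCF. It was the only member whose groups did not overlap, 1 of 23, where 13.2% of all probe sets did not and 7.18% had all CTCF arrays lower. The log2 change was -0.58 ± 0.11 (SE), a 1.49-fold difference, with an adjusted p of 0.0653. It was -0.61 within the larger set and -0.53 within the smaller. Probe set 200905_x_at read 992 and 724 with empty vector and 489, 457.5, 385 and 736 with CTCF. Here CTCF 4 lay just above empty vector 2, so the groups overlapped, and the log2 change was -0.58 ± 0.15 (adjusted p = 0.122). Probe set 200904_at read 50.3 and 172 with empty vector and 26.2, 46.8, 50.7 and 20.8 with CTCF. The CTCF arrays reached the lower empty vector array but not the higher, and the log2 change was -1.39 ± 0.28 (adjusted p = 0.0758). Within the sets it was -1.74 and -0.85, in the larger and the smaller.

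When the probe sets of each gene were averaged on the log2 scale, HLA-E fell in the CTCF arrays and was the 1 member gene of 9 past the threshold. The background in that fit was 4.64%, or 918 of 19775 genes, and 3.24% for lower genes. Its log2 change was -0.85 ± 0.13 (SE), with a 95% interval of -1.17 to -0.53 and an adjusted p of 0.0254. Within the larger set the change was -1.02 and within the smaller -0.60. The call was lost without the block (log2 -0.86, adjusted p = 0.201). It was also lost in the larger set alone (without empty vector 1 or CTCF 4), without empty vector 2, without CTCF 2 and without CTCF 3, with adjusted p from 0.0855 to 0.427, and kept at 0.0309 without CTCF 1. With the brightest probe set of each gene in place of the mean, 0 of the 9 member genes passed, against 5.89% of all genes, and HLA-E had an adjusted p of 0.0770. The change of the mean stayed below 0 without the block and with arrays left out, from -0.60 to -1.02. The mean counts each HLA-E probe set alike. The dimmest, 200904_at, had a log2 change of -1.39, against -0.58 in both _x_at probe sets.

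HLA-B and HLA-C encode classical heavy chains, which present peptides to CD8 T cells and are ligands of killer cell immunoglobulin-like receptors. All 7 of their probe sets have the suffix _x_at. For HLA-B, 208729_x_at read 107 and 219 with empty vector and 149.5, 179, 156 and 115 with CTCF. Its log2 change was -0.21 ± 0.16 (SE, adjusted p = 0.582), with -0.41 in the larger set and 0.09 in the smaller. The CTCF values lay inside the range of the empty vector values. HLA-B 211911_x_at read 167 and 27.3 with empty vector and 14.8, 34.5, 33.6 and 174 with CTCF. The high arrays were empty vector 1 and CTCF 4, those of the smaller set, and the log2 change between groups was 0.01 ± 0.24 (95% interval -0.58 to 0.59).

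HLA-B 209140_x_at read 94.5 and 34.4 with empty vector and 28.3, 26.8, 38.3 and 72.6 with CTCF, with a log2 change of -0.19 ± 0.15. Its smaller set was likewise high. HLA-C 208812_x_at read 396 and 97.5 with empty vector and 65.9, 101, 103 and 320 with CTCF. HLA-C 211799_x_at read 194 and 16.9 with empty vector and 19.0, 16.7, 27.8 and 192 with CTCF, and 214459_x_at read 284 and 120 against 78.7, 113, 102 and 261. In all 3 the smaller set was high in both groups, by 3.38-fold, 5.92-fold and 2.35-fold in the fit. Their log2 changes between groups were -0.19 ± 0.20, 0.09 ± 0.16 and -0.20 ± 0.16, with adjusted p from 0.598 to 0.830. HLA-C 216526_x_at had no such pattern and read 94.4 and 131 with empty vector and 101, 91.2, 108 and 77.3 with CTCF. Its log2 change was -0.30 ± 0.12 (adjusted p = 0.283).

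The smaller set was thus higher in 5 of the 7 HLA-B and HLA-C probe sets, and lower in 208729_x_at and 216526_x_at. Over all members the sets did not overlap for 17 of 23 probe sets, 7 higher and 10 lower in the smaller set, against 53.3% of all probe sets. The set effect exceeded the group effect in 19 of 23, against 71.2% of all. Of COL1A1, COL3A1 and LUM, markers of fibroblasts, which express class I, 2 of 3 were higher in the smaller set. Their summed intensity was 6828 in empty vector 1 and 6304 in CTCF 4, against 304 to 395 over the other arrays. Nearly all of it came from COL3A1 211161_s_at, which read 6627 and 6114 against 146 to 165, while the other 4 COL3A1 probe sets stayed between 0.98 and 74.8 and COL1A1 between 138 and 227. The part of fibroblast RNA, RNA quality or labelling in the HLA-B and HLA-C values was not tested.

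**Figure D2:**
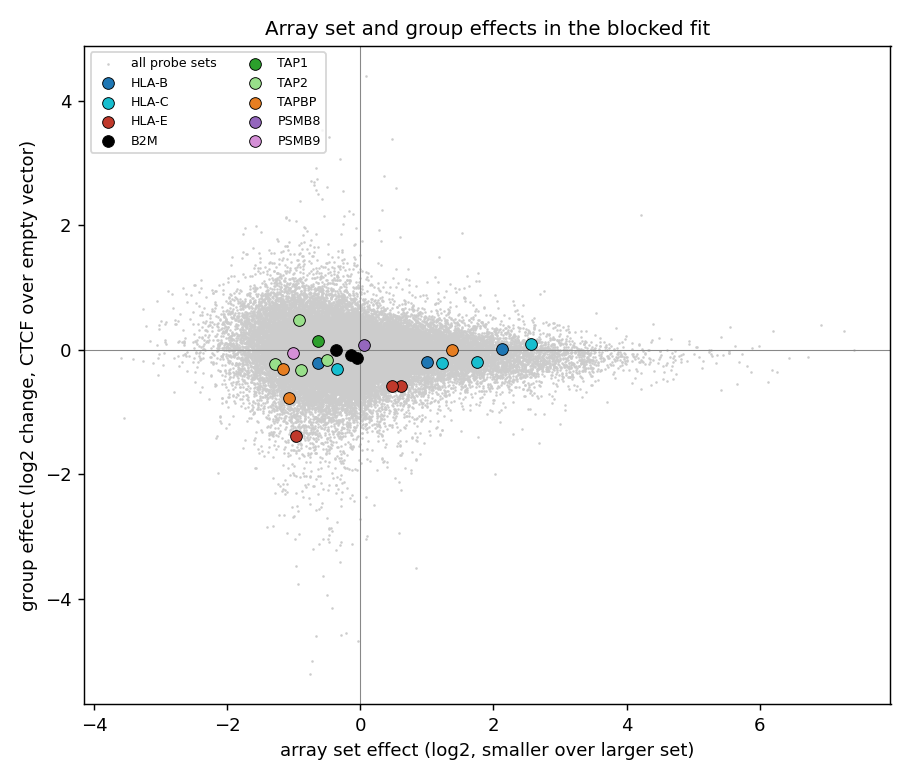
Each grey point is 1 of 54613 probe sets, with the log2 difference between array sets (smaller over larger) on the horizontal axis and the log2 change between groups (CTCF over empty vector) on the vertical axis, both from the blocked fit. The members, coloured by gene, spread from TAP2 204770_at on the left to HLA-C 211799_x_at at 2.57 on the right, while most lie near 0 on the vertical axis and the lowest is HLA-E 200904_at at -1.39.

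B2M, the light chain that every class I heavy chain needs to fold, gave alike values in all arrays. Its probe set 201891_s_at read 7244 and 7670 with empty vector and 7336, 7021, 6321 and 6746 with CTCF. The log2 change was -0.13 ± 0.12 (SE, 95% interval -0.44 to 0.17, adjusted p = 0.648). Probe set 216231_s_at read 6230 and 6935 with empty vector and 6158, 6590, 6660 and 5950 with CTCF, with a log2 change of -0.09 ± 0.11 (95% interval -0.37 to 0.19). The groups overlapped in each of these probe sets, and a decrease or an increase of 2-fold lies outside both intervals. The third probe set, 232311_at, was dim in every array, from 3.07 to 17.9.

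TAP1 and TAP2 form the transporter that pumps peptides into the endoplasmic reticulum. TAP1, read by 202307_s_at alone, had values of 56.5 and 97.99 with empty vector and 100.06, 125, 101 and 64.4 with CTCF. Its log2 change was 0.14 ± 0.14 (SE, adjusted p = 0.686), and both smaller set arrays were the lowest. TAP2 had 4 probe sets, which disagreed in sign. Probe set 204769_s_at read 85.4 and 187 with empty vector and 238, 251, 278 and 134 with CTCF, and its log2 change of 0.47 ± 0.13 (adjusted p = 0.129) was the most positive of the 23. Probe set 225973_at read 205 and 406 with empty vector and 336, 334, 279.5 and 165 with CTCF, with a log2 change of -0.32 ± 0.13 (adjusted p = 0.286). The groups overlapped in both. Probe set 204770_at read 52.6 and 157 against 151, 129, 109.6 and 45.1, with a log2 change of -0.22 (adjusted p = 0.536), and 208428_at was dim, from 17.7 to 39.4. Averaged over its probe sets, TAP2 had a log2 change of -0.06 ± 0.12 (adjusted p = 0.844).

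TAPBP encodes tapasin, which holds empty class I molecules at the transporter until a peptide is bound. Its probe set 208829_at read 324 and 847 with empty vector and 459.8, 465, 364 and 224 with CTCF. Within each set the empty vector array was the higher, by 0.96 on the log2 scale in the larger and 0.50 in the smaller. The log2 change was -0.78 ± 0.17 (SE, 1.71-fold, adjusted p = 0.0908). Probe set 1555565_s_at had 377 and 115 with empty vector and 122, 140.1, 124 and 323 with CTCF. It was high in the smaller set, where 208829_at was low, and its log2 change was 0.00 ± 0.14 (adjusted p = 0.995). Probe set 210294_at read 12.1 and 52.0 against 43.7, 38.8, 28.1 and 8.54, with a log2 change of -0.30 (adjusted p = 0.417). The 3 probe sets of TAPBP therefore disagreed in size, and their mean had a log2 change of -0.36 ± 0.12 (adjusted p = 0.160).

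PSMB8 and PSMB9 are the inducible proteasome subunits encoded beside TAP1 and TAP2. PSMB8 209040_s_at was at or near the floor of the table, with 1.00 in both empty vector arrays and 1.00, 1.00, 2.52 and 2.52 with CTCF. The value 1.00 is shared by 3.596% to 3.962% of the probe sets of an array, so values there have no order. PSMB9 204279_at read 10.5 and 41.4 with empty vector and 38.9, 39.0, 33.8 and 11.5 with CTCF. Its low arrays were those of the smaller set, and the log2 change between groups was -0.04 ± 0.12 (SE, 95% interval -0.34 to 0.25).

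**Figure D3:**
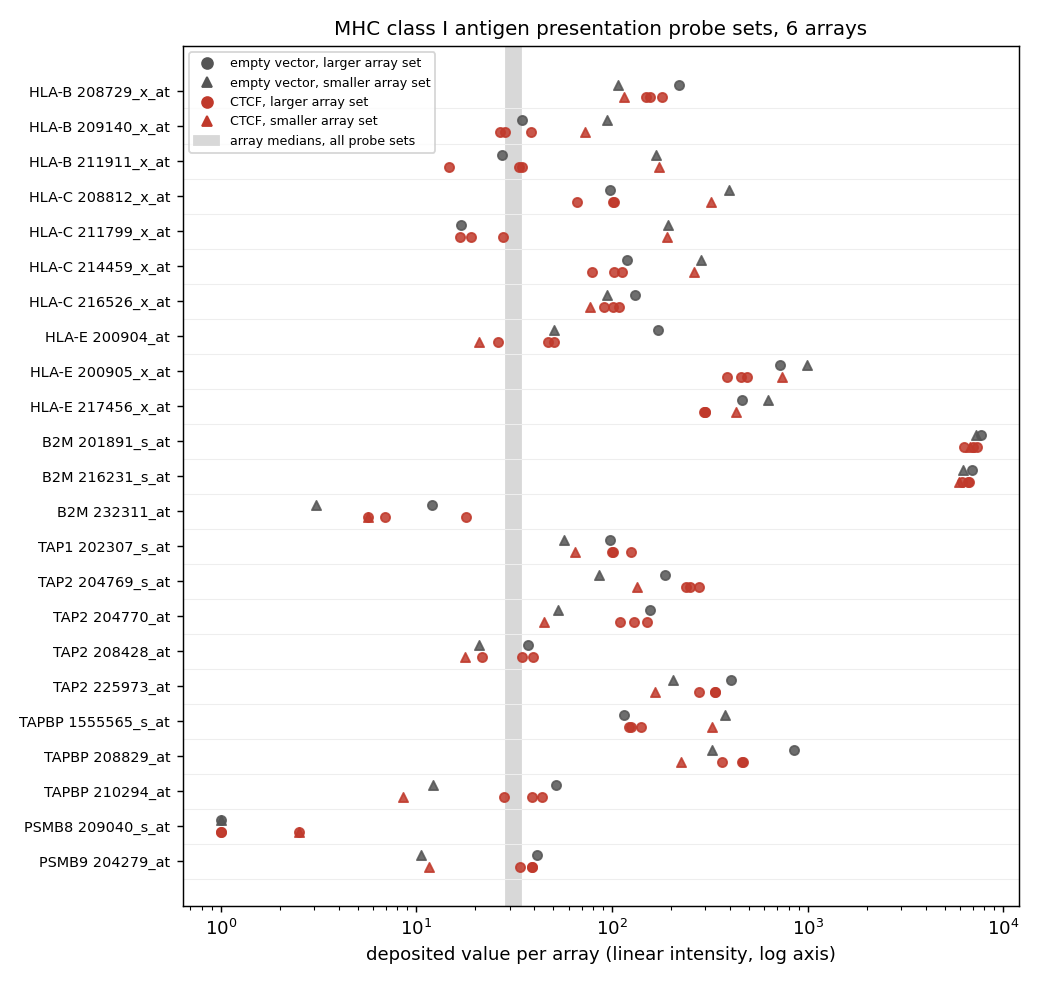
Intensity of the member probe sets in each of the 6 arrays on a log scale, with the group and the array set of each array marked and a grey band over the array medians of all probe sets. In HLA-C 211799_x_at, empty vector 1 and CTCF 4 stand at 194 and 192 while the other 4 arrays lie between 16.7 and 27.8, and in HLA-E 217456_x_at all 4 CTCF arrays lie below both empty vector arrays.

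The authors' deposited table lists the probe sets they selected, 768 of the 54675 on the array. Of these 768, 311 were higher and 457 lower with CTCF, and 0 were among the 23 members. So few were selected that 0 of 23 is no result about the members. The authors' header gives 1.5 as the minimum lower bound of the fold change and 90 as the minimum difference of means.

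Other genes of the pathway were taken from lists, with the brightest probe set of each gene, for which 2.57% of 19775 genes passed. At an unadjusted p under 0.05, 8.66% of these genes were higher and 12.7% lower. Of 12 peptide loading and trimming genes, 0 passed, and their median log2 change was -0.17, against -0.02 over all genes. At an unadjusted p under 0.05 there were 1 higher and 3 lower. ERAP1, the aminopeptidase that trims peptides in the endoplasmic reticulum, read 485 and 662 with empty vector and 438, 439, 422 and 257 with CTCF. In this probe set, 209788_s_at, all CTCF arrays lay below both empty vector arrays, as in 7.18% of all probe sets. Its log2 change was -0.71 ± 0.12 (SE, adjusted p = 0.0569). In the other ERAP1 probe sets the groups overlapped, and the log2 changes ran from -1.04 to -0.20. SEC61A1, a channel subunit of the endoplasmic reticulum membrane, had a log2 change of -0.47 ± 0.17 (adjusted p = 0.220).

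Of 8 measured proteasome counterparts and activators 0 passed, and their median log2 change was 0.28. At an unadjusted p under 0.05 there were 3 higher and 1 lower. PSMB10, the remaining inducible catalytic subunit, read 111 and 237 with empty vector and 234, 472, 446 and 196 with CTCF, with overlapping groups and a log2 change of 0.66 ± 0.30 (SE, adjusted p = 0.342). PSME1, a subunit of the proteasome activator PA28, read 1145 and 1306 with empty vector and 836, 1019, 979 and 695 with CTCF. All CTCF arrays lay below both empty vector arrays, as in 7.18% of all probe sets, and the log2 change was -0.56 ± 0.14 (adjusted p = 0.116). In PSMB5, PSMB6 and PSMB7 all CTCF arrays lay above both empty vector arrays. Their log2 changes were 0.26, 0.45 and 0.29, and groups did not overlap in 13.2% of all probe sets.

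JAK1, the kinase that carries signals from interferon receptors, fell in the CTCF arrays. It was the only one of 26 measured class I regulators and interferon signalling genes to pass. Its probe set 201648_at read 1494 and 1266 with empty vector and 704, 616, 644 and 695 with CTCF, with means of 1380 ± 161 (SD, n = 2) and 665 ± 41.9 (SD, n = 4). The log2 change was -0.997 ± 0.123 (SE, adjusted p = 0.0292), with -0.94 in the larger set and -1.09 in the smaller. Of the 5 JAK1 probe sets 2 passed, the other being 1552610_a_at at -0.99 (adjusted p = 0.0261). Without the block the adjusted p was 0.201, and in the larger set alone (without empty vector 1 or CTCF 4) or without empty vector 2, CTCF 2 or CTCF 3 it was 0.117 to 0.398, at log2 changes of -0.94 to -1.09.

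NLRC5, the class I transactivator, was dim and read 39.9 and 4.35 with empty vector and 6.31, 11.6, 5.67 and 50.1 with CTCF. Its high arrays were the 2 of the smaller set, as for most HLA-B and HLA-C probe sets, and its log2 change was 0.23 ± 0.15 (SE, adjusted p = 0.501). IRF1, an interferon-induced activator, had a log2 change of -0.24 ± 0.14 (adjusted p = 0.448) in 202531_at. Its other probe set, 238725_at, had the opposite sign, at 0.21 ± 0.14 (adjusted p = 0.507). RFX5, a subunit of the RFX complex, had a log2 change of -0.36 ± 0.12 (adjusted p = 0.195). The median over the 26 genes was -0.13, and at an unadjusted p under 0.05 there were 2 higher and 7 lower.

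ULBP2, a surface ligand of the NK receptor NKG2D, fell with CTCF and was the only one of 15 class I-like and NK ligand genes to pass. Its probe set 238542_at read 95.04 and 243 with empty vector and 56.1, 58.2, 60.4 and 22.5 with CTCF. The means were 169 ± 104 (SD, n = 2) and 49.3 ± 18.0 (SD, n = 4), and the groups did not overlap. The log2 change was -1.69 ± 0.12 (SE), or 3.23-fold lower, with an adjusted p of 0.0144, and -1.80 and -1.53 within the larger and the smaller set. Its other probe set, 221291_at, had a log2 change of -0.83 ± 0.20 (adjusted p = 0.103). For 238542_at the adjusted p was 0.569 without the block, and in the larger set alone (without empty vector 1 or CTCF 4) or without empty vector 2, CTCF 2 or CTCF 3 it was 0.0926 to 0.342, at log2 changes of -1.53 to -1.80. The median of the 15 genes was -0.14, and at an unadjusted p under 0.05 there were 1 higher and 5 lower. HLA-F and HLA-G, further class I heavy chain genes, had 7 probe sets, of which 0 passed. Their log2 changes ran from -0.68 (HLA-F 204806_x_at, adjusted p = 0.109) to 0.45 (HLA-G 211530_x_at, adjusted p = 0.362).

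**Figure D4:**
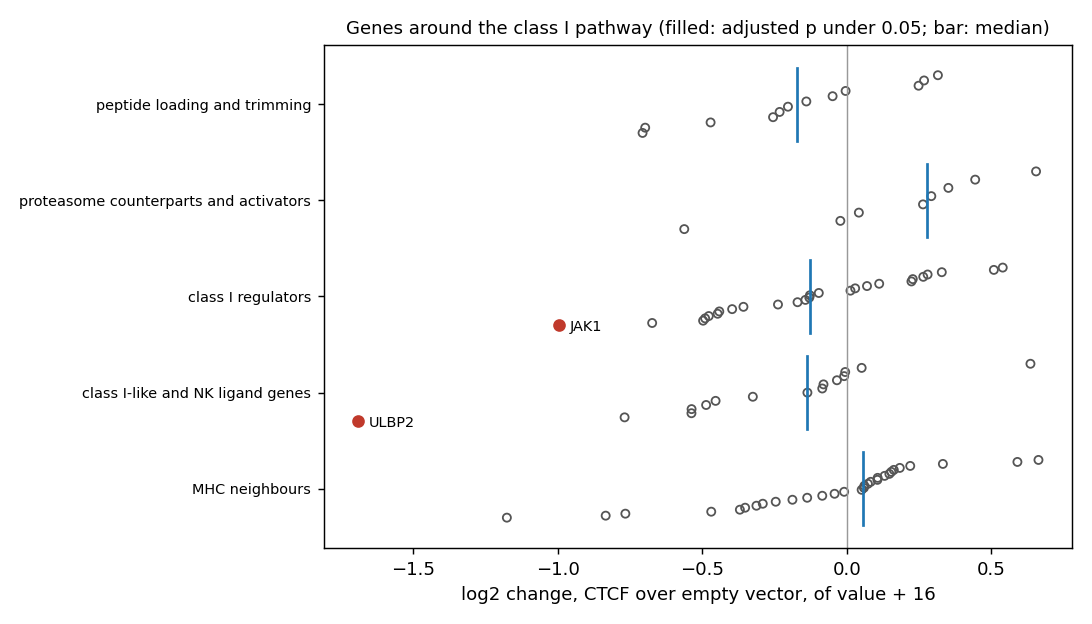
Log2 change of each measured gene of the 4 pathway lists and the MHC neighbours, CTCF over empty vector, in the blocked fit, 1 point per gene with the median of each list. The points past the threshold are JAK1 at -0.997 among the regulators and ULBP2 at -1.69 among the class I-like and NK ligand genes.

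All members but B2M lie in the MHC region of chromosome 6, from HLA-E (chr6:30489509-30494194) to TAPBP (chr6:33299694-33314078) in RefSeq GRCh38.p14, and B2M lies at chr15:44711517-44718145. The 3 nearest measured protein-coding genes on each side of every member gave 30 neighbours. None of them passed, 2 were higher and 5 lower at an unadjusted p under 0.05, and their median log2 change was 0.06. SPG11 203513_at, which neighbours B2M, read 1328 and 1585 with empty vector and 939, 581, 542 and 613 with CTCF. Its log2 change was -1.18 ± 0.25 (SE, adjusted p = 0.0805). In the other SPG11 probe sets the groups overlapped, and the log2 changes ran from -0.39 to -0.07. RGL2, a neighbour of TAPBP, had a log2 change of -0.83 ± 0.27 (adjusted p = 0.192).

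Promoter sequences are shown for the heavy chains HLA-B and HLA-C, whose promoters are near copies, and for B2M and TAPBP, which hold cores of the interferon-stimulated response element and a kappaB-like site. They are the 250 bases before the RefSeq start site (GRCh38.p14), written 5′ to 3′ along the gene, with capitals for matches to 5 motifs on either strand. HLA-B lies at chr6:31357180-31357429 on the minus strand and HLA-C at chr6:31272093-31272342 on the minus strand. B2M lies at chr15:44711267-44711516 on the plus strand and TAPBP at chr6:33314079-33314328 on the minus strand.
HLA-B: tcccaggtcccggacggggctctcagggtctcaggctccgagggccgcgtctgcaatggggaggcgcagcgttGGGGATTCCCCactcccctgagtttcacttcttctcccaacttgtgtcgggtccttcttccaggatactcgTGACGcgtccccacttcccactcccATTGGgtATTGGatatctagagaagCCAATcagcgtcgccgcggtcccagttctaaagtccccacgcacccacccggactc
HLA-C: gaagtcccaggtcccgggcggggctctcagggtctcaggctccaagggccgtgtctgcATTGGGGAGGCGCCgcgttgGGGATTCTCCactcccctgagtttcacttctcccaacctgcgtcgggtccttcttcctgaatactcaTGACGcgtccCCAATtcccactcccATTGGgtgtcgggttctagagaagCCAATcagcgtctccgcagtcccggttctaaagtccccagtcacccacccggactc
B2M: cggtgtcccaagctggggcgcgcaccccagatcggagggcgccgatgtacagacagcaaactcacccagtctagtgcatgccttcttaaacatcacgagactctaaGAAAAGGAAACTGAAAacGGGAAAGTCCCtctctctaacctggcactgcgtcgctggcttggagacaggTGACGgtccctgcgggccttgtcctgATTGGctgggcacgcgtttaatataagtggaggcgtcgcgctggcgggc
TAPBP: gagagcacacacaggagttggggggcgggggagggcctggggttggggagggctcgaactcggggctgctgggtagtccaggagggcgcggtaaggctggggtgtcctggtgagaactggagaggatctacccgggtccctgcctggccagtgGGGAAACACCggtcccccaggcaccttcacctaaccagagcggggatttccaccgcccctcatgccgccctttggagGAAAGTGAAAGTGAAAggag

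The motifs were an interferon-stimulated response element core (ISRE, GAAA, any 2 bases, GAAA), a kappaB-like site (GGGA, any 4 bases, CC), an X2-like site (TGACG), the Y box (CCAAT) and a core of the CTCF motif (CCA, any 2 bases, AG, any 2 bases, GGC). They were searched in windows from 250 bases before to 50 after the start, which 8 of the 9 members had, in 10 windows, and overlapping matches were all kept. HLA-B and HLA-C were identical at 269 of 304 alignment columns (88.5%). Both held a kappaB-like site, the X2-like site and Y boxes. Neither had a match to the strict ISRE letters. A looser form of the element was not searched, so this does not show that these promoters lack one. HLA-C had a kappaB-like match at -188 and Y boxes at -192 and -95 without a counterpart in HLA-B, which had a Y box at -74 without one in HLA-C. In B2M a pair of overlapping ISRE cores covered positions -144 to -129 before a kappaB-like site, the X2-like site and a Y box, and in TAPBP such a pair covered -20 to -5. The ISRE core was in 5 of the 10 member windows (B2M, TAPBP, TAP2, and 1 window each of TAP1 and PSMB8), against 3.57% of all 35116 windows. The kappaB-like site was in 5 against 25.6%, the X2-like site in 6 against 24.6%, and the Y box in 5 against 34.6%. The CTCF core was in 0 of the 10 and in 2.41% of all, which says only that these letters are not in these windows. The windows of TAP1 and PSMB9, which start on opposite strands, share 13 bases.

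**Figure D5:**
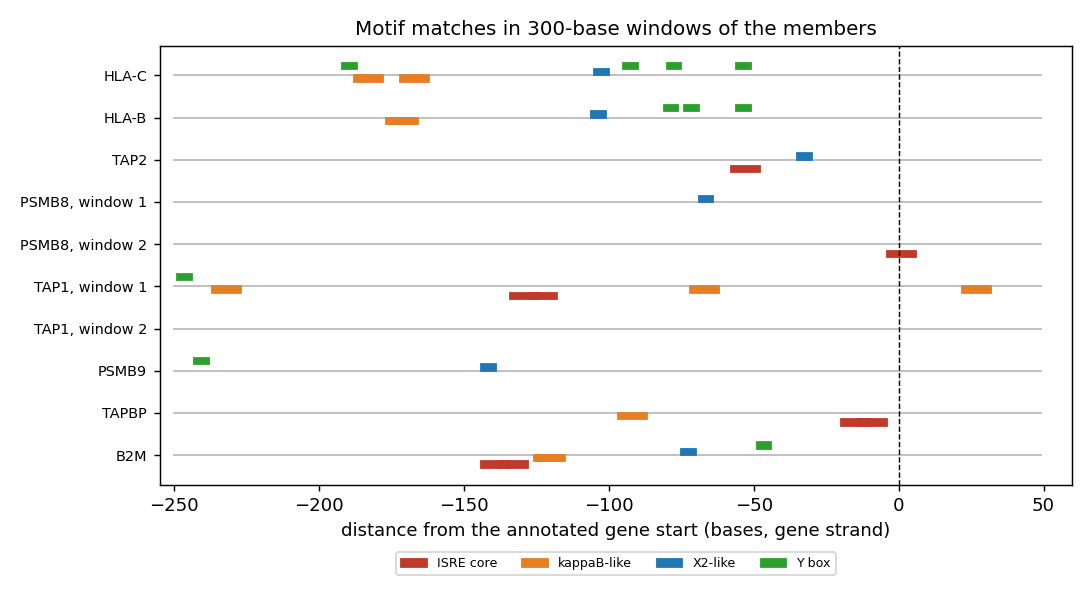
Position of each motif match in the 10 member windows, in bases from the start site, with 1 row per window and a colour for each of the 4 motifs with a match. HLA-B and HLA-C share a kappaB-like match, the X2-like match and 2 Y boxes at like distances and differ in other matches, and the ISRE cores of B2M and TAPBP stand at -144 and at -20.

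For each member the gene with the most similar log2 values over the 6 arrays was found among 21726 probe sets of other genes above the median. This is a description only, and likeness can come from the array sets, which did not overlap in 53.3% of all probe sets. The sets did overlap in B2M 201891_s_at and PSMB8 209040_s_at. HLA-E 200905_x_at was most like CFLAR (r = 0.999), and 249 candidates had an r over 0.95. HLA-B 208729_x_at was most like SOCS1 (r = 0.999, with 259 over 0.95), and HLA-C 208812_x_at like APOL2 (r = 0.999, with 1510 over 0.95). B2M 201891_s_at was most like the noncoding RNA NORAD (r = 0.997, with 62 over 0.95). So many candidates near the top leave the leading name with little weight. For TAP1 202307_s_at it was ARL6 (r = 0.998), for TAP2 225973_at TFE3 (r = 0.999), for TAPBP 208829_at PHF21A (r = 0.998) and for PSMB9 204279_at LIG3 (r = 0.999), with 568 to 2686 candidates over 0.95. PSMB8, near the floor, was most like CEP89 (r = 0.961).

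Markers of other cell types were read over whole lists, and 0 passed in each list except the T cell list. The monocyte genes CD14, CSF1R and CD163 lay between 1.00 and 31.0, the B cell genes MS4A1 and CD79A between 11.9 and 123, and the dendritic cell gene CD1C between 1.00 and 4.55. The NK cell genes NCAM1, KLRD1 and NKG7 summed to 172 in empty vector 1 and 147 in CTCF 4 and to between 19.1 and 52.7 elsewhere, nearly all of it NCAM1. Of the T cell genes CD3E, CD3D and CD2, CD3D read 1352 and 1318 with empty vector and 603, 676, 653 and 635 with CTCF. It fell by 1.04 on the log2 scale (adjusted p = 0.0250, but 0.167 without the block and 0.105 to 0.398 in the larger set alone and without empty vector 2, CTCF 2 or CTCF 3), and the list summed to 1440 and 1405 against 689.7 to 751. CD3E and CD2 lay between 22.6 and 54.3.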

How the data were processed

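The authors deposited 1 linear intensity per probe set and array; how they corrected background, summarised probes and normalized is not given in the sources used here. A second file, the list of probe sets selected by the authors, adds scores: a signed fold change with bounds and a difference of means. Groups came from the sample titles. The members and lists were chosen with earlier results of these data known. The array set was also known from an earlier look at these data when it was chosen as the block.

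Intensities, as log2(value + 16), were fitted in limma 3.58.1 under R 4.3.3 (lmFit, then eBayes, 2-sided), with the array set as a block. The 54613 probe sets that are not AFFX controls entered, with Benjamini-Hochberg adjustment over all of them and a threshold of 0.05. Sets came from complete-linkage clustering of the arrays on 45 spike-in probe sets. The smaller set, with 1 array a group, gives no test on its own.

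GEO's platform annotation named the probe sets (41091 with 1 gene, 1801 with several, 11721 not listed), and 41037 were matched to RefSeq symbols. In that annotation no member probe set was shared between genes, but 9 of the 10 HLA probe sets have the suffix _x_at. For listed genes the brightest probe set was used. The text names every member, every listed gene past the threshold (or, where none passed, the 2 of a list with the largest change among those brighter than the median), and NLRC5, IRF1 and RFX5. COL3A1, NCAM1, CD3D, HLA-F, HLA-G, PSMB5, PSMB6 and PSMB7 were singled out after their values were seen. Some listed genes are not analysed here.

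With 200 of 54613 probe sets changed in simulated data, the blocked fit of CTCF over empty vector recovered 65% of 2-fold and 100% of 4-fold changes and made 178 calls, 13 of them false. Without the block it recovered 0%. The simulated data kept the fitted array set differences, so that 0% was built in and is no test of the block. Noise was independent between arrays, and the changed probe sets were drawn from those brighter than the median. The recovery therefore does not cover the 5 members below the median. The number of arrays limits the precision. Alternatives were array weights, median centring, quantile normalization, pseudocounts of 1 and 64, variance trend with robust variances, no dim probe sets, a threshold of 0.01, no block, the larger set alone, the replicate number as a block, the mean of a gene's probe sets and leaving out each array. The mean of a gene's probe sets was thus itself an alternative, and the alternatives of the HLA-E mean were chosen after seeing the data.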

Additional observations from a re-analysis of the deposited data

Results flagged for a closer look

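In 8 of the probe sets described, 1 CTCF array stood apart from the other 3, by a gap that took up most of the group's range and passed Dixon's critical value for 4 samples. Chance gives about 1 in 20 such groups, and 15.1% of all probe sets showed it here. In 6 of the 8 the array was CTCF 4, the only CTCF array of the smaller set, and the part of the array set was not tested. HLA-C 211799_x_at read 191.77 in CTCF 4, close to 194 in empty vector 1. TAPBP 1555565_s_at read 322.76 and HLA-E 217456_x_at 428.13 in CTCF 4, above the other CTCF arrays. PSMB9 204279_at read 11.54, ERAP1 209788_s_at 257.42 and ULBP2 238542_at 22.46 in CTCF 4, below them. B2M 232311_at, a dim probe set, read 17.93 in CTCF 3. CTCF itself read 1613.74 in CTCF 2, above the other 3 arrays.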

How the results depend on the processing

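Over all probe sets the blocked fit called 1017, of which 22 passed at a threshold of 0.01. There were 1913 calls with array weights, 2140 with a pseudocount of 64, 2567 with a variance trend and robust variances and 2642 without dim probe sets, but 2 with a pseudocount of 1, 6 with no array set block, 0 in the larger set alone and 0 with the replicate number as a block. Leaving out 1 array gave 0 to 762, with 762 without CTCF 1 and 8 without CTCF 3. The cause was not tested. The member probe sets called, 0 in the blocked fit, were 1 with array weights and with a pseudocount of 64 (HLA-E 217456_x_at), and 3 with the variance trend and without dim probe sets (HLA-E 200904_at and 217456_x_at and TAPBP 208829_at). They stayed 0 under each left-out array. With the mean of a gene's probe sets 1 member gene passed, HLA-E.

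The HLA-E mean kept its direction in every alternative run. Its call was lost in the larger set alone (-1.02), with no block (-0.86), with a pseudocount of 1 (-0.98), with the replicate block (-0.92) and at a threshold of 0.01 (-0.85), and the left-out arrays gave -1.02 to -0.60. The class I regulators called, 1 in the blocked fit, were 2 with array weights and without dim probe sets, 3 with a pseudocount of 64 and with the variance trend, and 0 in the larger set, with no block, with a pseudocount of 1, with the replicate block and at 0.01, and 0 to 1 under left-out arrays. The NK ligand genes, also 1, were 0 in the larger set, with no block, with a pseudocount of 1, with the replicate block and at 0.01, and 0 to 1 under left-out arrays. Peptide loading genes, 0 in the blocked fit, were 1 with array weights, a pseudocount of 64, the variance trend and no dim probe sets, and the proteasome genes 1 with a pseudocount of 64. The MHC neighbours, likewise 0, were 1 with array weights, median centring and a pseudocount of 64, 2 with the variance trend and without dim probe sets, and 0 to 1 under left-out arrays.

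Log2 changes that turned sign had adjusted p far from the threshold. With no block these were HLA-B 211911_x_at (-0.52), HLA-C 211799_x_at (-0.55), B2M 232311_at (0.090), TAP2 204770_at (0.10), TAPBP 1555565_s_at (-0.34), PSMB9 (0.21) and NLRC5 (-0.14). With the replicate block they were HLA-B 208729_x_at (0.081) and 211911_x_at (-1.18), HLA-C 211799_x_at (-1.30), TAP2 204770_at (0.52), 208428_at (0.26) and 225973_at (0.20), TAPBP 1555565_s_at (-0.62) and 210294_at (0.39), PSMB9 (0.49), NLRC5 (-0.44) and IRF1 (0.21). B2M 232311_at was 0.013 with array weights, 0.045 with median centring, 0.058 with a pseudocount of 1 and 0.0045 with quantile normalization. PSMB9 was 0.0029 with median centring and 0.0069 with quantile normalization. HLA-B 211911_x_at was -0.026 in the larger set and -0.020 with a pseudocount of 1, and TAPBP 1555565_s_at -0.0089 with a pseudocount of 64. Under left-out arrays the range was -0.41 to 0.089 for HLA-B 208729_x_at, -0.060 to 0.14 for 211911_x_at, -0.015 to 0.16 for HLA-C 211799_x_at, -0.13 to 0.18 for B2M 232311_at, -0.21 to 0.15 for TAPBP 1555565_s_at and -0.11 to 0.056 for PSMB9.

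Replicate numbers were shared only by 2 pairs, whose deviations correlated at -0.68 (number 1) and 0.70 (number 2). The deviations of the 2 empty vector arrays mirror each other, and CTCF 1 and CTCF 2 both lie in the larger set. These correlations therefore cannot tell whether the numbers pair the samples. The replicate block replaced the array set, since together they leave no residual degrees of freedom. Without empty vector 2 or in the larger set alone the smaller number of arrays also lowers what a test can call.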
